A study of Homo sapiens with 15 samples.

Results

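CDKN2A, CDKN2B and MTAP are neighbouring genes of the 9p21 band on the short arm of human chromosome 9. They were chosen by name, and the breaks in them were counted within a 4 Mb window (hg19, chr9:20000001-24000000) cut into 200 bins of 20 kb. They are 3 of the 20098 protein-coding genes counted, and the window holds 200 of the 141791 bins of chromosomes 1 to 22 and X that could be read. CDKN2A encodes both p16INK4a, which inhibits CDK4 and CDK6, and p14ARF, which restrains MDM2. CDKN2B encodes p15INK4b, another inhibitor of CDK4 and CDK6. MTAP encodes methylthioadenosine phosphorylase, the enzyme that returns methylthioadenosine from polyamine synthesis to the methionine salvage pathway. The genes are often lost together in tumours, and K562, an established line from a chronic myeloid leukemia, is known to lack them.

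SSiNGLe-P1 maps free 3′-OH ends of DNA in crosslinked nuclei, and P1 nuclease adds such ends by cutting single-stranded DNA. A stretch of the genome that the cells do not carry can give no ends of its own, so the sites mapped to it serve as a control for mapping. All 15 samples came from K562 cells labelled WT, whose nuclei were fixed with formaldehyde. They were 3 biological replicates each of untreated nuclei and of nuclei digested with 0.01, 0.1, 1 or 10 U of P1. A unique site is a position and strand with at least 1 mapped terminus, and the files held between 2057216 and 3881950 unique sites. The window held between 271 and 518 of them per sample and 4940 in all. BCR and ABL1, whose fusion marks this cell line, had a density of unique sites at 929% and 650% of the median protein-coding gene.

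The breaks stopped within a single bin and did not come back inside the window. At the left end of the window, 37 bins (chr9:20000001-20740000, 0.74 Mb, called the flank below) held between 67 and 187 sites each over the 15 samples, with a median of 120. A bin was called empty when the untreated samples had less than 20% of the median chromosome 9 bin outside the window. In the untreated samples 160 of the 200 bins were called, against 1.52% of all bins of the genome. In the 12 treated samples the number was also 160, and in single samples it ranged from 156 to 166. No bin of the flank was called. The called bins joined into 1 stretch of 5.82 Mb (chr9:20760001-26580000) that began in the window and went past its right end, with 289 of its 291 bins called. It was the longest of 5 such stretches of at least 1 Mb in the genome. On chromosome 9 outside the window, 639 of 5808 bins were called, those of this stretch past the window among them. Further runs of 0.2 to 0.5 Mb lay between chr9:39180001 and chr9:65920000. Part of the stretch lies outside the window, so the interior used below is its share of the window without the first bin (chr9:20780001-24000000, 161 bins, 3.22 Mb).

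**Figure D1:**
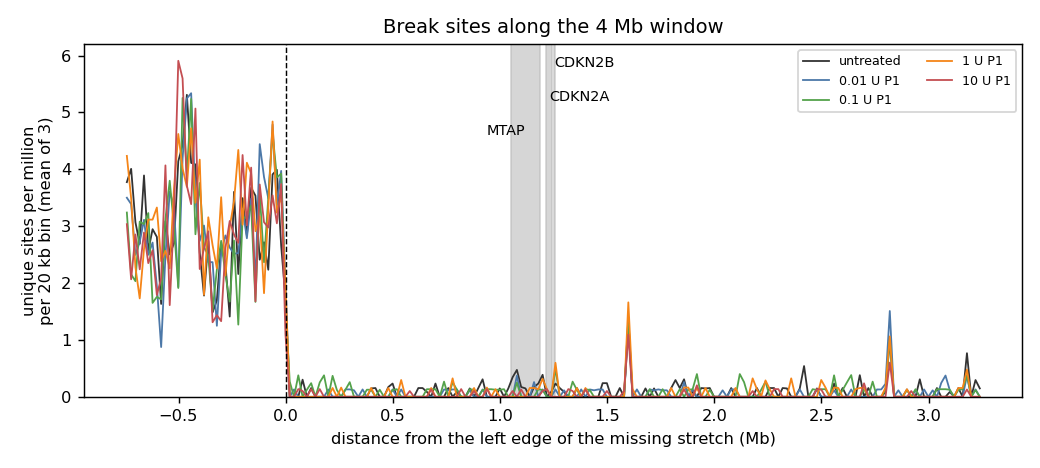
Unique sites per 1000000 sites of the file in 20 kb bins (mean of 3 replicates, 1 line per P1 amount) against the distance in Mb from the left edge. Grey bands are MTAP, CDKN2A and CDKN2B, and the dashed line is the edge. The 5 lines fall together at the edge and stay near 0 over the genes, with 2 narrow peaks in bins that held 52 and 40 sites over the 15 samples.

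The share of positions with a unique 31-base sequence in the interior was close to that of the flank. This share does not replay the authors' alignment of longer read pairs. In the interior 88.0% of positions had a centred 31-base sequence found once in the reference genome, in the flank 90.6% and in the 3 genes 83.6%. With the sites and bases of the 3 genes limited to such positions, they had 1.70% of the chromosome 9 median. That median was still taken over all positions, so the 2 sides of this share are not alike. The other stretches of at least 1 Mb were 1 more on chromosome 9, 2 on chromosome 6 and 1 on chromosome 5, and their share of such positions was computed for none of them.

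MTAP, the enzyme of methionine salvage, is the longest of the genes. It (chr9:21802635-21937650, plus strand, 135 kb) held 26 sites in all, where the median density of chromosome 9 would give 1249 and the flank density 810. The untreated samples held 11, 1 and 2 sites. The samples with 0.01 U held 1, 2 and 2 sites, and those with 0.1 U held 0, 1 and 2. The samples with 1 U held 0, 0 and 2, and those with 10 U held 1, 1 and 0. Untreated replicate 1 stood apart, at 9.05% of the chromosome 9 median (exact 95% Poisson interval of 5.49 to 19.7 sites), while no other sample passed 2.96%. Without it the gene held 15 sites, or 1.33% of the chromosome 9 median pooled over 14 samples. The 11 sites of untreated replicate 1 had 1 terminus each, 8 were on the plus strand, 6 were in exons and 6 lay within 150 bases of another of the 11. Exons make up 14.5 of the 135 kb of the gene. These 6 were the only exonic sites of MTAP in the 15 samples. In every sample the upper limit of the Poisson interval lay below both expected numbers.

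The cell cycle inhibitors lie to the right of it, on the minus strand. CDKN2A (chr9:21967751-21995300, 27.6 kb) held 1 site in 15 samples, in 1 U replicate 1, and 0 in the other 14. The chromosome 9 median would give between 13.8 and 24.8 sites in each sample and 255 in all. The single site lay in an exon and had 1 terminus. Pooled, the gene was at 0.392% of the chromosome 9 median (exact 95% Poisson interval 0.00993 to 2.19%). A count of 0 allows up to 3 sites, which is 21.8% of that median in the sample where it allows most.

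CDKN2B (chr9:22002902-22009304, 6.40 kb) held 4 sites, 1 each in untreated replicate 1, 0.01 U replicate 3, 0.1 U replicate 1 and 1 U replicate 1. The other 11 samples held 0. The last pair share 1 intronic position whose 31-base sequence is not unique in the genome. The gene is short: the chromosome 9 median would give between 3.20 and 5.76 sites per sample, and the upper Poisson limit fell below that number in 7 of 15 samples. In 0 of 15 did it fall below the number at flank density, so against the flank a depletion was not detectable in single samples at this depth. Pooled, it was at 6.75% of the chromosome 9 median (exact 95% Poisson interval 1.84 to 17.3%), which was also 10.4% of the flank density. The interval of CDKN2B overlaps those of MTAP (1.36 to 3.05%) and of CDKN2A, so no order beyond that of the point values can be given for it. Intervals and floors here cover counting error only.

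**Figure D2:**
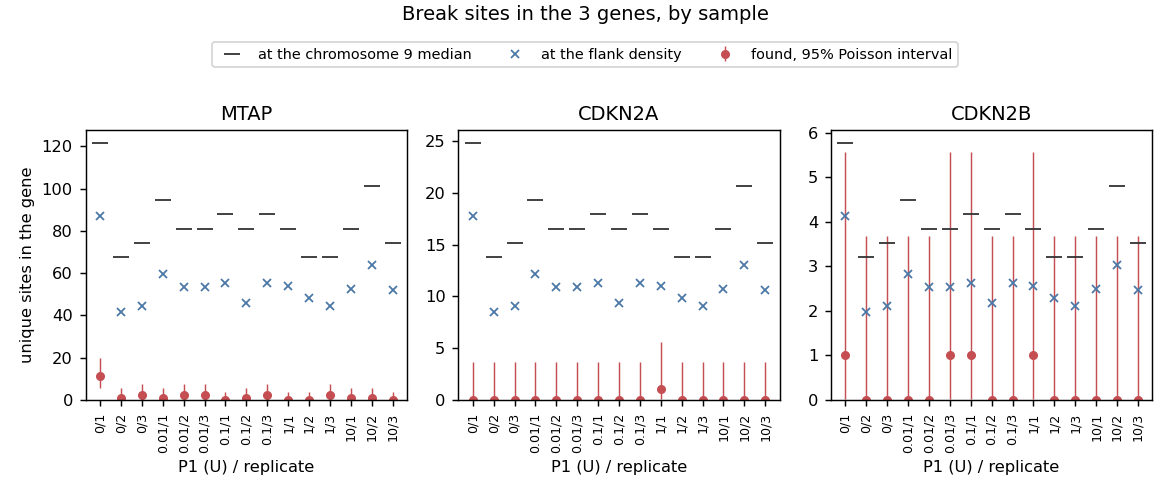
Unique sites in each gene by sample (red points with exact 95% Poisson intervals), with the number at the median chromosome 9 density (black bars) and at flank density (blue crosses). The x axis gives the P1 amount in U and the replicate, and each panel has its own y axis from 0. All 15 red intervals lie below both marks in MTAP and CDKN2A, and in CDKN2B the intervals reach the flank density.

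Taken as 1 stretch of 169 kb, the 3 genes held 31 sites, between 0 and 12 per sample, where the chromosome 9 median would give 1563. Their density was 1.79% ± 1.89 of that median (SD, n = 15) and it was lower in 15 of 15 samples. The difference passed an exact two-sided sign-flip permutation test over samples (p = 6.1e-05, the smallest the 32768 arrangements allow, adjusted p = 0.000183 over 9 tests). All samples came from 1 cell line known to lack these genes. The test therefore covers the spread between libraries only, and it could hardly have failed. Without untreated replicate 1 the density was 1.35% ± 0.875 (SD, n = 14). By amount it was 3.74% ± 3.63 in the untreated samples, 1.93% ± 1.06 with 0.01 U, 1.24% ± 0.505 with 0.1 U, 1.45% ± 1.27 with 1 U and 0.592% ± 0.522 with 10 U (SD, n = 3 each). Without replicate 1 the untreated mean was 1.67%. The ranges of neighbouring amounts overlap, and no test over amounts was made on the genes alone except in the bins that hold them, given below. The flank had 64.2% ± 6.46 of the chromosome 9 median in the untreated samples, so part of the distance to that median was already there outside the missing stretch.

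A difference between the genes and the stretch around them was not detected over the 15 samples. With positions that recurred across samples left out, the 3 genes had 4.20 ± 4.38 sites per Mb for each 1000000 sites of the file and the rest of the interior 2.74 ± 1.49 (SD, n = 15). The genes were higher in 9 of 15 samples, and the exact two-sided sign-flip permutation test, chosen after seeing the data, gave p = 0.288 (adjusted p = 0.324). Without the samples of replicate 2 the same exact test gave p = 0.0391, and without untreated replicate 1 the difference fell from 1.46 to 0.369 on the same scale. The 11 bins that hold the genes had between 1 and 11 sites each, with a mean of 4.55 over the pooled samples. The other 150 bins of the interior had a mean of 2.55, or 1.98 without recurrent positions. The bin with 11 holds CDKN2B and also UBA52P6, a processed pseudogene of a ubiquitin fusion gene that begins 2.85 kb beyond it. The pseudogene held 3 sites in 0.1 U replicate 3, 3 in 1 U replicate 3 and 0 in the other 13 samples.

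The rest of the stretch carries the type I interferon genes, secreted antiviral proteins that lie side by side on 9p. All 16 interferon genes of the window fell inside it. They held 1 site in all, in IFNA2, where the flank density would give 98.6 over their 16441 bases. Only 68.7% of these bases had a unique 31-base sequence, and the family is a set of close copies. Of 25 protein-coding genes that overlap the window 13 were long enough to be tested (at least 20 sites at the median gene density), and 12 of the 13 had less than 20% of the median gene. The share over all protein-coding genes was 2.94%. The 3 genes of interest were among the 12. The exception was MLLT3, the fusion partner of KMT2A in acute leukemia, with 1480 sites. It had 28.4% of the median gene and 87.8% of the flank density. At flank density it would hold 1685 sites, where the median gene density would give 5217. Kept DNA of the flank therefore lay not far above the 20% threshold. FOCAD, which lies only partly in the missing stretch, was also among the 12, with 690 sites and 34.1% of the flank density. HACD4, an enzyme of fatty acid elongation, held 1 site. KLHL9, a substrate adaptor of a ubiquitin ligase, and DMRTA1 also held 1 each. ELAVL2, a neuronal RNA-binding protein, held 11 sites where the flank density would give 817. The non-coding CDKN2B-AS1, which runs antisense through CDKN2B, held 22 against 804, and MIR31HG held 22 against 1079. Beyond the window, IZUMO3 and TUSC1 held 0 sites each.

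Genes of the same pathways elsewhere in the genome were not called. With 2.94% of all protein-coding genes called, a list of this length would more often than not hold none. Of 10 cell cycle genes (the other INK4 inhibitors CDKN2C and CDKN2D, the kinases CDK4 and CDK6, the D cyclins, RB1, E2F1 and MDM2) 0 were called. Their densities ran from 43.3% of the median gene for RB1 to 177% for CCND3, with a median of 125%. CDKN2C was at 86.2% and CDKN2D at 153%. Of 11 genes of methionine salvage, polyamine synthesis and methylation (among them MAT2A, PRMT5 and WDR77) 0 were called, with a range from 66.8% for MAT2B to 153% for SRM. PRMT5, the arginine methyltransferase that methylthioadenosine inhibits, was at 152% and MAT2A, which makes S-adenosylmethionine, at 126%. In all, 14587 genes would have at least 200 sites at the median density, and 67 of these held 0 sites. Of the 67, 47 were on chromosome 6 and 12 on chromosome X. TRIM39, TRIM26 and OR5V1 on chromosome 6 and IL9R and VAMP7 on chromosome X, tied with the rest at 0, stand for them. The authors kept unique pairs only, and the share of positions with a unique sequence was not computed for these genes. Whether they are missing from the cells or could not be read by unique mapping was not tested.

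The edges of the missing stretch were placed by the position at which the rate of sites changes most. On the left, the 15 pooled samples gave chr9:20751090, with support (2 log-likelihood units) to 20751990. The rate fell from 6.97 to 0.110 sites per kb, or 63.3-fold. Single samples placed it between 20736550 and 20751820, with a median of 20747190 and an SD of 4113 bases. The untreated samples alone gave 20746310, which is farther than 1 SD away. The edge fell in an intron of FOCAD, a gene for a focal adhesion protein, and the support touched no annotated exon. The 92.8 kb of FOCAD to the left of the edge held 662 sites, between 29 and 56 in each sample. The 245 kb to the right of it, 72.5% of the gene, held 28, between 0 and 7 in each sample.

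On the right, outside the window, the pooled samples gave chr9:26589520, with support from 26589120. The rate rose from 0.0639 to 5.05 sites per kb, or 79.0-fold. Single samples placed this edge between 26589520 and 26601050, with an SD of 3752 bases. It lay in no annotated gene, 911 kb past TUSC1 and 251 kb before CAAP1. Between the edges lie 5.84 Mb. After it, 97 bins (1.94 Mb) had 72.9% of the site density of the flank, and 5 of them were called. A further empty stretch of 3.06 Mb (chr9:28560001-31620000) followed, with 1.71 sites per bin against 2.30 in the stretch with the genes. No read across the junction was analysed here, so whether these ends are joined was not tested.

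**Figure D3:**
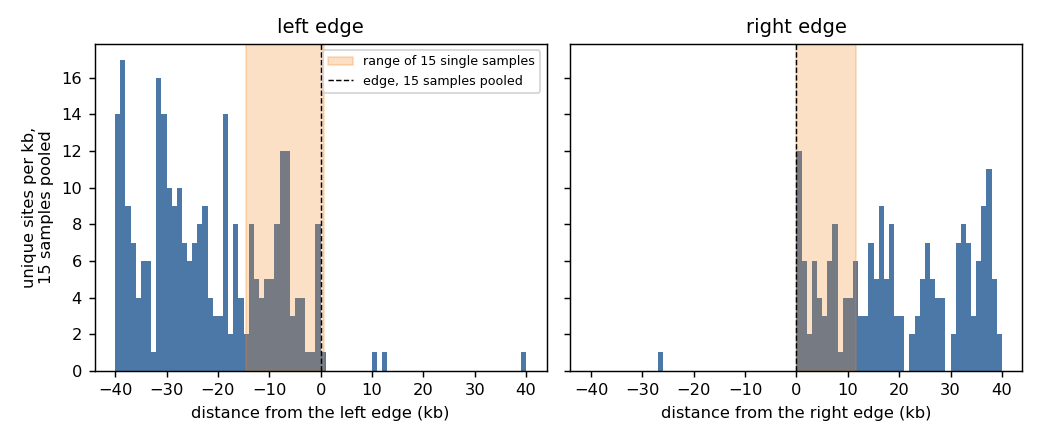
Unique sites per kb, pooled over 15 samples, within 40 kb of the left and the right edge of the missing stretch. Dashed lines are the pooled edges and orange bands the range over single samples, which spans 15270 bases on the left and 11530 on the right. Sites are dense on the outer sides and nearly absent on the inner sides.

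Stray sites, those inside the interior, numbered 433 over the 15 samples, with a median of 2 per bin and none in 22 of the 161 bins. Per 1000000 sites of the file, the untreated samples had 9.79, 18.9 and 15.9 stray sites. The samples with 0.01 U had 9.24, 12.4 and 10.1, and those with 0.1 U had 10.4, 21.98 and 12.3. The samples with 1 U had 6.81, 12.2 and 13.9. The samples with 10 U had 3.84, 5.47 and 6.49, below each of the other 12 samples, of which the lowest was 1 U replicate 1. The 10 U mean of 5.27 ± 1.34 was 0.354 times the untreated mean of 14.9 ± 4.65 (SD, n = 3 each). In the exact permutation test over the 5 amounts, with values exchanged within replicate numbers, p was 0.00660 (adjusted p = 0.0148). Without the replicate block the permutation test gave p = 0.0717, so the call rests on the block. Same-numbered samples did not deviate together elsewhere on chromosome 9, where the correlations of their deviations ran from -0.0368 to 0.0394. Leaving out replicate 1 or replicate 2 also ended the call, at p = 0.0667 and p = 0.15 in the exact test. Counting all termini in place of unique sites ended it too, with a ratio of 0.562 and p = 0.139 in the exact test.

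Relative to the flank the floor was 2.35% ± 1.15 (SD, n = 15), from 0.801% in 10 U replicate 1 to 5.04% in 0.1 U replicate 2. It was 3.13% ± 1.18 in the untreated samples and 1.09% ± 0.258 with 10 U (SD, n = 3 each). Exchanging values within replicate numbers, the exact permutation test gave p = 0.0136 (adjusted p = 0.0204), and 0.0986 without the block. Leaving out replicate 1 or replicate 2 gave p = 0.133 and p = 0.183 in the exact test. The call was also lost with all termini (ratio 0.569, exact p = 0.11) and with sites of at least 2 termini (ratio 0.693, exact p = 0.22), against a ratio of 0.349 with all unique sites. The flank itself, as a share of the chromosome 9 median, was 64.2% in the untreated samples and 65.9% with 10 U, and the same exact test gave p = 0.432. In the 11 bins that hold the 3 genes the 10 U mean was 0.207 times the untreated mean, with p = 0.168 in the exact test. The files of the samples with 10 U were not the shallowest, and depth was not tested as a part of this difference.

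**Figure D4:**
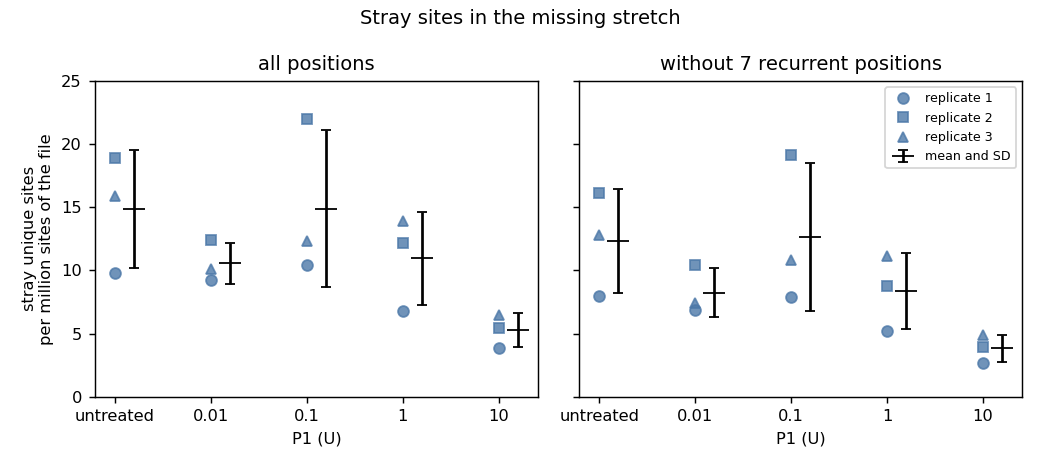
Stray unique sites per 1000000 sites of the file in the interior, by P1 amount, with 1 marker per replicate and the mean with SD beside them. The left panel holds all positions and the right panel leaves out the 7 positions found in at least 5 samples. The 3 samples with 10 U lie at 3.84 to 6.49 on the left and at most 4.87 on the right, under all others in both panels.

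Most stray sites were seen once. Of 338 interior positions, 318 held a site in 1 sample and 20 in at least 2 (5.92%), against 1.30% of 4378 positions of the flank. At least 5 samples shared 7 interior positions and 0 flank positions, where the largest number was 4 samples. The 7 positions form 3 clusters, which carry most of the 4422 interior termini. The sequences of clusters 2 and 3 are shown because they recur although they are unique in the genome. Each is the plus strand of hg19 with 40 bases on either side, and capitals mark the bases from the first to the last recurrent position.
cluster 2: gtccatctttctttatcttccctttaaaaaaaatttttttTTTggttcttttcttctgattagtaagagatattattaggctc
cluster 3: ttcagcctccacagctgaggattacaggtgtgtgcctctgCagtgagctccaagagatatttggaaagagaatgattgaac

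Cluster 1 lies on the minus strand 340 kb past CDKN2B and was found in 15 of 15 samples. It held 3984 termini in all, between 80 and 672 per sample with a median of 238. By comparison, no flank position held more than 4 termini in a sample, and no interior position outside the clusters more than 2. Its 31-base sequence was not unique, and 203 bases around it had 22480 other matches in the genome of at least 100 bases and 90% identity, the best at 100%. Termini per 1000000 termini of the file were 73.7 ± 22.7 in the untreated samples, 107 ± 28.3 with 0.01 U, 136 ± 77.95 with 0.1 U, 97.6 ± 33.3 with 1 U and 44.97 ± 28.1 with 10 U (SD, n = 3 each). An exact permutation test within replicate numbers, chosen after seeing the data, gave p = 0.193 (adjusted p = 0.248).

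Cluster 2 (chr9:23568344-23568346, minus strand) was found in 13 samples, with 59 termini and at most 9 in a sample. Cluster 3 (chr9:23932630, plus strand) was found in 10 samples, with 22 termini. It had 0 in the 3 samples with 10 U and also in 0.01 U replicate 2 and 1 U replicate 1. Over the 5 amounts the exact permutation test gave p = 0.22 for cluster 2 and p = 0.233 for cluster 3, both unadjusted and chosen after seeing the data. Their 31-base sequences occur once in the genome, and neither had another match of at least 100 bases and 90% identity.

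**Figure D5:**
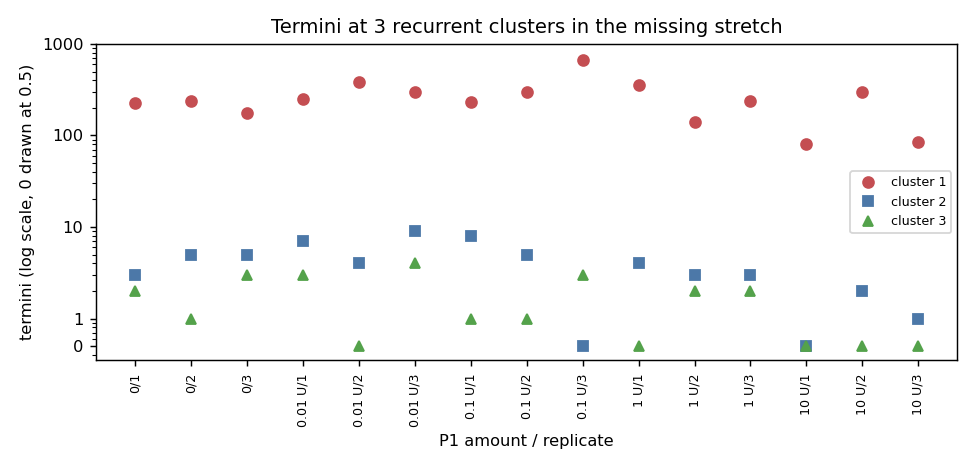
Termini at the 3 recurrent clusters in each of the 15 samples, on a log axis with 0 drawn at 0.5. The x axis gives the P1 amount and the replicate. Cluster 1 lies between 80 and 672 in every sample, while clusters 2 and 3 stay at 9 or below.

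The sequence around stray sites held more A and T than that around flank sites. The A and T share of the whole interior and of the whole flank was not computed. A difference between the regions therefore cannot be told apart from one between the sites. A and T made up 63.3% ± 4.58 of the 21 bases centred on a stray site and 53.6% ± 0.804 around a flank site (SD, n = 15). The share was higher in 15 of 15 samples, and the exact two-sided sign-flip permutation test, chosen after seeing the data, gave p = 6.1e-05 (adjusted p = 0.000183). Without the recurrent positions the difference fell from 9.67 to 3.52 percentage points, and the exact test still gave p = 0.00256. The share of stray sites with 2 or more termini was 20.8% ± 10.6 against 8.23% ± 2.37 in the flank, and this held in each of the 15 samples (p = 6.1e-05 in the exact sign-flip permutation test, adjusted p = 0.000183). Without the recurrent positions the difference was -3.35 points (exact p = 0.0656). The share on the plus strand was 40.6% ± 12.5 against 51.1% ± 3.81 (exact sign-flip permutation p = 0.0105, adjusted p = 0.0189). Without the recurrent positions that difference was -2.51 points, with exact p = 0.545, and the call also ended without replicate 1 (exact p = 0.107) and without replicate 3 (exact p = 0.0566).

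No single-stranded region was called in the interior. The 12 deposited lists of such regions, each from a treated sample and its same-numbered untreated sample, held 7592 regions on chromosome 9. Of these 0 touched CDKN2A, CDKN2B or MTAP and 0 touched the interior. The shorter flank held 7 regions in 5 of the lists and 22 clustered cut sites, against 0 clustered cut sites in the interior. The 80 or more termini of cluster 1 led to no region in any list. The paper set its redundancy threshold to 1, so termini stacked at a position count once, and cluster 1 has 3 positions. The untreated samples that served as control also held 225, 236 and 176 termini there, which count once per position in the same way. Why no region was called at cluster 1 was not tested.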

How the data were processed

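The authors aligned reads with G and T tails to hg19 with BWA 0.7.12, kept unique pairs and removed termini with more than 40% T in 20 upstream bases. The deposited site files give, per position and strand, a count of mapped termini. Per the paper's methods, SICER 1.1 compared treated with untreated samples that carry the same number. The deposited region lists also hold p-values, folds and FDR of that comparison, which were not used. Whether PCR duplicates were removed from the counts is not given in the sources used here, so intervals cover counting error only.

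The genes, window and lists were chosen with earlier results of these data known. Files held between 2258825 and 4253274 termini, and unique sites were scaled to 1000000 sites of the file. Samples were grouped by the P1 amount and replicate number in their titles. Genes and exons came from GENCODE 44 mapped to GRCh37, which is the build of the files. Bins with over 50% unknown bases were left out, and called bins were joined over at most 1 uncalled bin. Edges were maximum-likelihood changes between 2 Poisson rates within 100 kb of the ends of the stretch. Amounts were compared by exact permutation, with values exchanged within replicate numbers (14400 arrangements), and interior with flank by exact sign-flip tests, both tested on simulated data, with Benjamini-Hochberg adjustment over 9 tests at 0.05. The block was used because the study compares samples of the same number. Samples shared between 0.573% and 1.35% of their chromosome 9 positions, so none was a copy of another. Named genes were the 3 genes, genes of the window at or next to an edge or in the interferon group, CDKN2B-AS1 and MIR31HG, cell cycle and methionine salvage lists, up to 5 genes with the lowest density, and BCR and ABL1. KLHL9, DMRTA1, ELAVL2, IZUMO3, TUSC1 and UBA52P6 were named after their values were seen. Some items are not reported here. Python 3.11.15, NumPy 2.4.6, pandas 2.3.3 and SciPy 1.17.1 were used.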

Additional observations from a re-analysis of the deposited data

How the results depend on the processing

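Each result was computed again under other settings, 85 times in all, and 66 of these were counted as unchanged. The called bins, the edges and the regions have no test, so only their values were compared. The flank density stayed uncalled, but its ratio went from 1.03 to 0.998 with all termini and 0.962 without replicate 3. Scaling to chromosome 9 outside the window cancels in shares of its median or of the flank, so there it could change nothing. The loss in the 3 genes kept its direction and its call under every setting run, from 1.35% of the chromosome 9 median without untreated replicate 1 to 2.19% without replicate 2. The fall of the floor at 10 U kept its direction but lost the call in several. The 10 U over untreated ratio was 0.562 with all termini (p = 0.139, exact permutation), 0.207 in the bins of the genes, and 0.354 with no replicate block (p = 0.0717), and from 0.324 to 0.402 when 1 replicate number was left out. Without 0.1 U replicate 2 and with no block, p was 0.0392. The floor relative to the flank gave 0.569 with all termini (p = 0.11), 0.693 with at least 2 termini (p = 0.22), 0.216 in the bins of the genes (p = 0.15) and 0.349 with no replicate block (p = 0.0986), none of which passed the test (exact permutation, or 100000 resamples without the block), and from 0.327 to 0.400 without 1 replicate number. The share of stray sites with 2 or more termini turned to -3.23 points for sites seen in 1 sample and to -3.35 without recurrent positions. The plus-strand difference was -0.394 and -2.51 points under these settings, and from -13.3 to -7.19 without 1 replicate number. The genes against the rest of the interior ranged from 0.0801 to 2.89 sites per Mb for each 1000000 sites of the file without 1 sample or replicate number. The left edge in the untreated samples was 20746310. The cause of these changes was not tested, apart from fewer samples where some were left out. The settings on recurrent positions, unique 31-base sequences, the right flank, the whole stretch and the omission of 0.1 U replicate 2 (floor) or untreated replicate 1 (genes) were chosen after seeing the data. The comparison of soft-masked sequence was not run, because the reference used here is not masked, nor was a left against right flank, since the stretch runs past the window. With at least 2 termini the median bin of chromosome 9 was empty in some sample, so the loss in the genes and the flank gave no value there. Depth limits CDKN2B most: 3 sites are 93.7% of the chromosome 9 median in the shallowest sample.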
